A study of Rattus norvegicus with 2 samples.

Results

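Cytochrome P450 enzymes were examined in total RNA of rat lung on 2 Affymetrix Rat Genome 230 2.0 arrays, on which a probe set is a group of short oligonucleotides for a transcript. Members were chosen by name: every non-control probe set whose platform annotation gives a single gene symbol made of Cyp, a family number, a subfamily letter and a gene number. The rule found 64 probe sets for 57 genes, out of 31042 non-control probe sets and 14217 named genes. Per the labels, each array came from lung and was prepared by another experimenter, with RNA purified on silica columns and biotin-labelled cRNA. They are called the arrays of experimenter 2 and experimenter 1, after the numbers in their titles. Strain, sex, age, treatment, the number of animals and whether both arrays share a lung are not stated in the labels. With 1 array per experimenter there was no replicate error, so nothing was tested and each gene is given by both of its values.

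Cytochromes P450 are haem enzymes that insert an atom of oxygen into their substrate, with electrons passed on by a reductase. Some families act on drugs, solvents and smoke constituents, and others make or break down steroid hormones, bile acids, vitamins and fatty acid mediators. Liver holds the widest set of the first kind, while lung is known for a smaller set in club cells, alveolar type 2 cells and endothelium.

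Values are log2 RMA values as deposited, and differences are experimenter 2 minus experimenter 1. Probe sets differ in how strongly they bind, so a position on the array orders signals and not amounts of RNA or enzyme. RMA gives no detection call either. A gene stands for its brightest probe set, the one with the highest mean. The non-control probe sets ran from 2.26 to 14.49 with a median of 6.28 for experimenter 2, and from 2.31 to 14.51 with a median of 6.32 for experimenter 1. Lung markers were near the top of both arrays: *Sftpc*, a surfactant gene of alveolar type 2 cells, was at 14.36 for experimenter 2 and 14.39 for experimenter 1, and *Scgb1a1*, the club cell secretoglobin, was at 14.44 for experimenter 2 and 14.37 for experimenter 1. In whole lung, fewer cells of a type and less RNA per cell cannot be told apart.

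A small set of P450 genes gave strong signals and most gave very weak ones. Of the 57 genes, 8 (14.0%) reached the 75th percentile of the non-control probe sets on both arrays, against 37.6% of all 14217 genes. At the other end, 30 (52.6%) were at or under the 25th percentile on both arrays, against 14.1% of all genes, and 19 lay between. The median level was 4.30 for experimenter 2 and 4.16 for experimenter 1, whereas over all genes it was 7.57 (experimenter 2) and 7.59 (experimenter 1). The upper bound stood at 8.18 for experimenter 2 and 8.22 for experimenter 1, and the lower bound at 4.37 (experimenter 2) and 4.42 (experimenter 1).

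**Figure D1:**
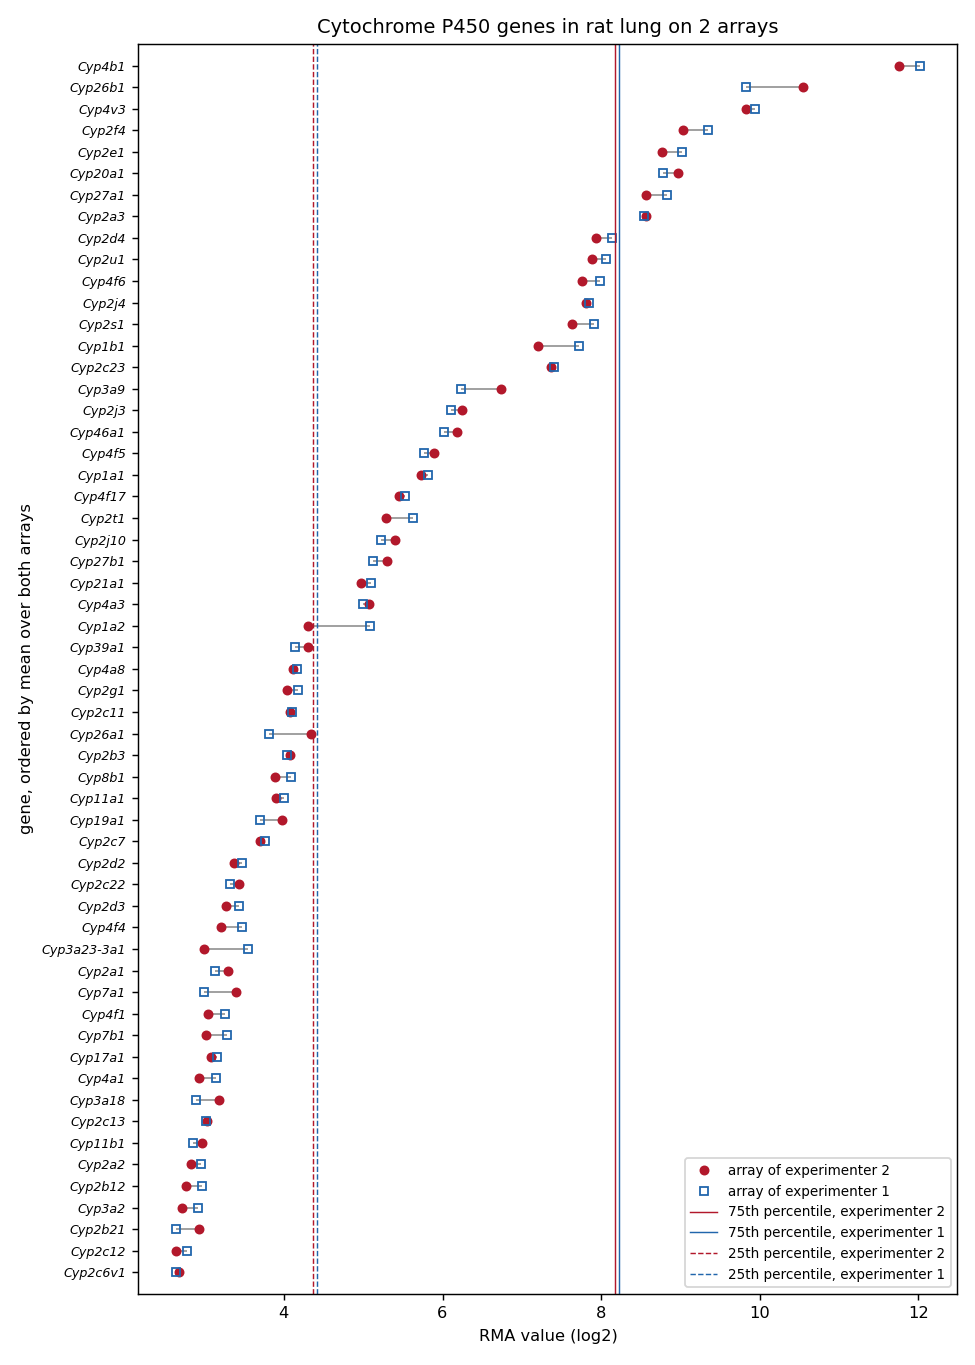
Level of each of the 57 P450 genes (log2 RMA value, horizontal) on the array of experimenter 2 (filled circles) and of experimenter 1 (open squares), in order of the mean; vertical lines mark the 75th and 25th percentiles of all non-control probe sets on each array. *Cyp4b1* stands alone at the top at 11.75 (experimenter 2) and 12.02 (experimenter 1), 8 genes lie right of the solid lines on both arrays, and 30 lie left of the dashed lines on both.

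*Cyp4b1* is an enzyme of fatty acids that also activates some lung toxins. It had the highest signal of the members, 11.75 for experimenter 2 and 12.02 for experimenter 1. These values were at percentiles 98.7 and 99.0 of the arrays. A probe set annotated to both *Cyp2b1* and *Cyp2b2*, and so not a member, measured 12.15 for experimenter 2 and 11.95 for experimenter 1. Second by mean level among the members was *Cyp26b1*, which breaks down retinoic acid, at 10.55 for experimenter 2 and 9.83 for experimenter 1. *Cyp4v3*, a fatty acid hydroxylase, measured 9.83 for experimenter 2 and 9.94 for experimenter 1. These 3 were the only members at or above the 90th percentile on both arrays, by their brightest probe sets. The second probe set of *Cyp26b1* was at percentiles 75.5 (experimenter 2) and 79.3 (experimenter 1). That of *Cyp4v3* was at 54.8 (experimenter 2) and 50.2 (experimenter 1), outside the upper set. *Cyp2f4*, a club cell enzyme known for activating naphthalene, measured 9.03 for experimenter 2 and 9.35 for experimenter 1. *Cyp2e1*, the oxidase of ethanol and small solvents, measured 8.77 for experimenter 2 and 9.02 for experimenter 1. The remaining members of this upper set had other tasks. *Cyp20a1*, whose substrate is not established, measured 8.97 for experimenter 2 and 8.78 for experimenter 1. *Cyp27a1*, a mitochondrial sterol hydroxylase, measured 8.57 for experimenter 2 and 8.83 for experimenter 1. *Cyp2a3*, an enzyme of the respiratory tract that acts on tobacco nitrosamines, measured 8.57 for experimenter 2 and 8.54 for experimenter 1. The order within the 8 differed between the arrays. For experimenter 2 alone *Cyp26b1* was above *Cyp4v3*, *Cyp20a1* was above *Cyp2e1* and *Cyp27a1*, and *Cyp2a3* was above *Cyp27a1*.

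Each of these 8 genes was in the upper set on both arrays, and no other member reached it on either array. By mean level *Cyp2a3* was the member just inside the bound, though for experimenter 2 *Cyp27a1* was closer to it. Just outside was *Cyp2d4*, the family 2d member best known from brain, at 7.93 for experimenter 2 and 8.14 for experimenter 1. At the lower bound, *Cyp39a1*, an oxysterol hydroxylase, was the nearest member under it by mean level, but on neither array alone, at 4.30 for experimenter 2 and 4.14 for experimenter 1. *Cyp1a2*, an oxidase of aromatic amines that is abundant in liver, lay on both sides of it, at 4.30 for experimenter 2 and 5.08 for experimenter 1. The order of neighbouring genes was mostly not fixed: of the 56 pairs next to each other by mean level, 19 had the same order on both arrays, and for 11 the ranges over the arrays did not overlap. Across the 57 genes, which share both libraries, Pearson's r was 0.994 and Spearman's rho 0.979. The place in the order differed by at most 3 ranks for 43 genes.

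Families that act on foreign compounds made up 28 of the genes, of which 3 were in the upper set on both arrays, 8 between the bounds and 17 near the floor. Besides *Cyp2f4*, *Cyp2e1* and *Cyp2a3*, the strongest were *Cyp2d4* and *Cyp2s1*, an enzyme of epithelia exposed to the outside, at 7.63 for experimenter 2 and 7.91 for experimenter 1. *Cyp2c23*, an arachidonic acid epoxygenase of rat kidney, measured 7.37 for experimenter 2 and 7.40 for experimenter 1. It stood apart from its subfamily, since 6 of the 7 genes of subfamily 2c were near the floor on both arrays. Those 6 were *Cyp2c11* and *Cyp2c13*, known as male forms of rat liver, *Cyp2c12*, the female form, and *Cyp2c7*, *Cyp2c22* and *Cyp2c6v1*. The lowest member of the whole group by its mean, *Cyp2c6v1*, measured 2.67 for experimenter 2 and 2.64 for experimenter 1.

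Of subfamily 2d, *Cyp2d2* and *Cyp2d3* were near the floor, at no more than 3.47 on either array, unlike *Cyp2d4*. Subfamily 3a, the main drug-oxidizing group of liver, showed a similar split. *Cyp3a9* measured 6.74 for experimenter 2 and 6.24 for experimenter 1, while *Cyp3a2*, *Cyp3a18* and *Cyp3a23-3a1* were near the floor on both arrays. Of these, *Cyp3a2* measured 2.71 for experimenter 2 and 2.92 for experimenter 1. All 3 genes of subfamily 2b with a probe set of their own were near the floor as well: *Cyp2b3* measured 4.08 for experimenter 2 and 4.04 for experimenter 1, *Cyp2b21* 2.92 (experimenter 2) and 2.64 (experimenter 1), and *Cyp2b12* 2.77 (experimenter 2) and 2.97 (experimenter 1). In contrast, a probe set annotated to both *Cyp2b1* and *Cyp2b2*, and so left out of the members, measured 12.15 (experimenter 2) and 11.95 (experimenter 1). By mean level the 5 lowest members were *Cyp2b12*, *Cyp3a2*, *Cyp2b21*, *Cyp2c12* and *Cyp2c6v1*. *Cyp2c12* measured 2.64 for experimenter 2 and 2.78 for experimenter 1. Genes of a subfamily are close relatives, and their probe sets may bind each other's transcripts. Signals in subfamilies 2a, 2b, 2c, 2d, 3a and 4a, strong or weak, are therefore uncertain as to the gene.

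The Ah receptor genes of family 1 are switched on by dioxins and polycyclic hydrocarbons, so they are widely used as readouts of such exposure. All 3 were between the bounds on at least 1 array. *Cyp1b1*, which also acts on oestrogens, measured 7.20 for experimenter 2 and 7.73 for experimenter 1. *Cyp1a1*, the classic inducible form, measured 5.73 for experimenter 2 and 5.82 for experimenter 1, under the median of both arrays. With *Cyp1a2*, all 3 were lower for experimenter 2, as were 58.7% of all genes, and stayed lower after each rescaling tried. The differences were -0.53 for *Cyp1b1*, -0.084 for *Cyp1a1* and -0.78 for *Cyp1a2*, against a median of -0.049 over all genes.

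Genes for fatty acids and eicosanoids numbered 14, with 2 in the upper set, 8 between the bounds and 4 near the floor. *Cyp2u1*, a long-chain fatty acid hydroxylase, measured 7.88 for experimenter 2 and 8.06 for experimenter 1. *Cyp4f6*, of the subfamily that inactivates leukotrienes, measured 7.76 for experimenter 2 and 7.99 for experimenter 1. *Cyp2j4*, an epoxygenase, measured 7.81 for experimenter 2 and 7.84 for experimenter 1. Thus the strongest members of 3 subfamilies lay close together under the upper bound. None of the 3 genes of subfamily 2j was near the floor, and their values ran from 5.40 to 7.81 for experimenter 2 and from 5.22 to 7.84 for experimenter 1. Subfamily 4f ran wider, from *Cyp4f1* at 3.04 (experimenter 2) and 3.26 (experimenter 1) up to *Cyp4f6*, with *Cyp4f5* and *Cyp4f17* between the bounds and *Cyp4f4* near the floor. The liver and kidney forms of subfamily 4a, which hydroxylate medium-chain fatty acids, were weak. *Cyp4a1*, the lowest of the 14, measured 2.93 for experimenter 2 and 3.14 for experimenter 1, and *Cyp4a3*, the strongest of that subfamily, measured 5.07 for experimenter 2 with a difference of 0.070.

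**Figure D2:**
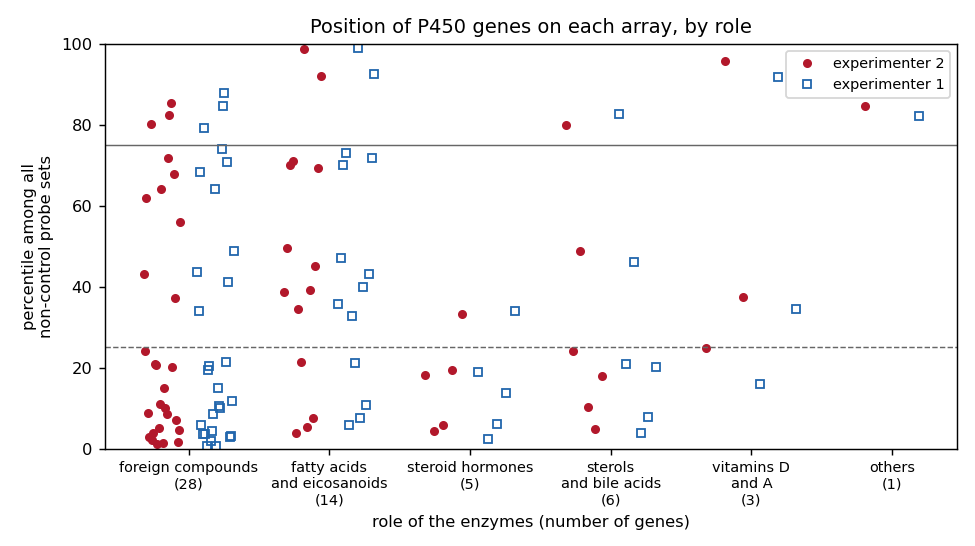
Percentile of each P450 gene among all non-control probe sets (vertical, percent) by the role of its family, with experimenter 2 as filled circles and experimenter 1 as open squares; the solid line is the 75th and the dashed line the 25th percentile, and numbers in brackets count genes. Of the 28 foreign-compound genes 17 lie under the dashed line on both arrays, and of the 14 fatty acid genes 4 do.

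Of the steroid hormone enzymes, 4 of 5 genes were near the floor on both arrays and none was in the upper set. *Cyp21a1*, the steroid hydroxylase of the adrenal cortex, was the highest at 4.97 for experimenter 2 and 5.10 for experimenter 1. *Cyp11b1*, which completes corticosterone synthesis, was the lowest at 2.96 for experimenter 2 and 2.85 for experimenter 1. *Cyp11a1*, the side-chain cleavage enzyme, *Cyp17a1* and the aromatase *Cyp19a1* were in between. Markers of adrenal cortex and gonad were mostly weak too, with a median of 4.25 for experimenter 2 and 4.09 for experimenter 1. Near the floor were 3 of 7 measured, against 14.1% of all genes. *Star*, another of them, was near the middle of the arrays, at 6.19 (experimenter 2) and 6.15 (experimenter 1). Of that list *Lhcgr*, the luteinizing hormone receptor, was lowest by its mean at 2.96 (experimenter 2) and 3.32 (experimenter 1), and *Inha*, an inhibin subunit, had the widest difference at 4.48 for experimenter 2 and 4.09 for experimenter 1. Its highest member was *Fdx1*, adrenodoxin, which serves mitochondrial P450 enzymes in many tissues.

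Sterol and bile acid genes held *Cyp27a1* in the upper set and 4 of 6 near the floor. *Cyp7b1*, an oxysterol hydroxylase, was the lowest by its value for experimenter 2 and by its mean, at 3.02 for experimenter 2 and 3.28 for experimenter 1. *Cyp7a1*, the rate-limiting enzyme of bile acid synthesis in liver, measured 3.39 for experimenter 2 and 2.99 for experimenter 1. *Cyp8b1*, which sets the kind of bile acid made, was also near the floor. *Cyp46a1*, the cholesterol hydroxylase of neurons, measured 6.19 for experimenter 2 and 6.01 for experimenter 1, between the bounds. Among vitamin enzymes *Cyp27b1*, which activates vitamin D, measured 5.31 for experimenter 2 and 5.13 for experimenter 1. *Cyp26a1*, the second retinoic acid hydroxylase, was near the floor at 4.35 for experimenter 2 and 3.81 for experimenter 1, far from its relative *Cyp26b1*.

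What a weak value means can be read against genes of other organs. The 24 measured genes of a list restricted to pancreas, pituitary, testis, eye, hypothalamus, midbrain and kidney ran from 2.40 to 6.06 for experimenter 2 and from 2.54 to 6.09 for experimenter 1. By its mean the lowest was *Amy2a3*, a pancreatic amylase, and the highest *Lhb*, a pituitary hormone subunit, at 6.06 for experimenter 2 with a difference of 0.059. The widest difference there was that of *Gcg*, glucagon, at 3.32 for experimenter 2 and 3.91 for experimenter 1. Their 90th percentile was 5.77 for experimenter 2 and 5.59 for experimenter 1. At or under that level on both arrays were 36 of the 57 P450 genes: the 30 near the floor, and *Cyp1a2*, *Cyp21a1*, *Cyp27b1*, *Cyp2j10*, *Cyp4a3* and *Cyp4f17*. Their signals could not be told from those of genes of other organs. *Cyp1a1* and *Cyp4f5* passed that percentile on at least 1 array but stayed within the range of the list on both.

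Neighbours on the chromosome differed widely. In rat assembly GRCr8, 10 members of family 2 follow each other within a stretch of chromosome 1 that holds 6 further annotated P450 genes of this naming. In their order along the chromosome, *Cyp2s1* was between the bounds, and *Cyp2b3*, *Cyp2b21*, *Cyp2b12* and *Cyp2g1*, an olfactory form, were near the floor. *Cyp2a3* followed in the upper set, then *Cyp2a1* and *Cyp2a2*, both near the floor. *Cyp2f4* in the upper set and *Cyp2t1*, at 5.29 for experimenter 2 and 5.63 for experimenter 1, ended the row. *Cyp2a1*, a steroid hydroxylase of liver, measured 3.30 for experimenter 2 and 3.14 for experimenter 1, next to *Cyp2a3* at 8.57 (experimenter 2) and 8.54 (experimenter 1). A further probe set was annotated to both *Cyp2a1* and *Cyp2a2* and so left out of the members. It measured 4.95 for experimenter 2 and 5.29 for experimenter 1, above the lower bound on both arrays. Another left out, annotated to both *Cyp2b1* and *Cyp2b2*, measured 12.15 for experimenter 2 and 11.95 for experimenter 1.

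**Figure D3:**
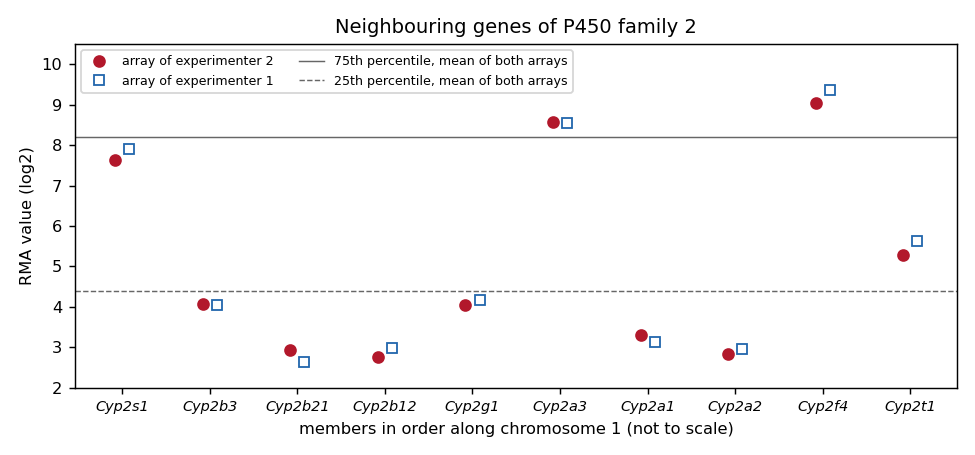
Level (log2 RMA value) of the 10 P450 members that follow each other on chromosome 1, in map order but not to scale, for experimenter 2 (filled circles) and experimenter 1 (open squares); horizontal lines are the 75th and 25th percentiles, averaged over the arrays. *Cyp2a3* and *Cyp2f4* lie above the solid line on both arrays, and 6 of the 10 lie under the dashed line.

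The 80 bases before the annotated start of this pair of neighbours, taken from RefSeq promoters of GRCr8, are shown because their signals were so unequal; capitals mark TATAAA, the core of a TATA box. *Cyp2a3* is at chr1:91299504-91299583 and *Cyp2a1* at chr1:91359198-91359277, both on the plus strand.
Cyp2a3: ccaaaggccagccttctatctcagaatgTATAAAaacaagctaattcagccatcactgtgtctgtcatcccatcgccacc
Cyp2a1: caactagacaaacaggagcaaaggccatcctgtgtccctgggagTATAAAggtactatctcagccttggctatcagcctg
The motif begins 52 bases before the start in *Cyp2a3* (-52) and 36 before it in *Cyp2a1* (-36), so the strong and the weak gene both carry it. TATAAA on either strand, beginning 60 to 21 bases before the start, was in 12 of the 45 matched P450 promoters (26.7%) and in 3.12% of the 33469 promoters of the table. By level it was in 2 of 7 in the upper set, 3 of 17 between the bounds and 7 of 21 near the floor.

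The dinucleotide CG, which is dense in promoters of widely expressed genes, was counted over the 250 bases before the start; it reads the same on both strands. Its median count was 2 in the 7 upper promoters, 5 in the 17 between the bounds and 2 in the 21 near the floor, against 5 over all promoters, of which 92.2% held at least 1. Counts of 5 or more were found in 3 of 7, 9 of 17 and 2 of 21 promoters. Such counts were in 31.1% of the 45 P450 promoters and in 55.3% of all promoters. Mean level and CG count correlated with Spearman's rho = 0.42 over the 45 genes, which include close relatives. As extremes, *Cyp20a1* in the upper set held 17, and *Cyp3a2* near the floor 0. Their windows are printed with CG in capitals, *Cyp20a1* at chr9:69249623-69249872 on the plus strand and *Cyp3a2* at chr12:14343858-14344107 on the minus strand.
Cyp20a1: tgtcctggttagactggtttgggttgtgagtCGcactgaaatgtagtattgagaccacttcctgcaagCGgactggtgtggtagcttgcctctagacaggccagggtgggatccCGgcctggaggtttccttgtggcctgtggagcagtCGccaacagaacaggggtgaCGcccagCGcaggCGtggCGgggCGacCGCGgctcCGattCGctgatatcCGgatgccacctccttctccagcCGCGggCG
Cyp3a2: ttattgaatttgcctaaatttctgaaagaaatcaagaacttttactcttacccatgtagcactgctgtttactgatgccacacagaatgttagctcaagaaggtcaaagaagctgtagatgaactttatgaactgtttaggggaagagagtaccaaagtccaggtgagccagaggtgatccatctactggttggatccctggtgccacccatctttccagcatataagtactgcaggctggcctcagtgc
This pair was picked for its extremes and does not stand for the upper and floor sets, whose median counts were equal. *Cyp4b1* and *Cyp2e1*, both in the upper set, held 0 CG in their windows, and *Cyp26a1*, near the floor, held 18. At least 1 CG was in 71.4% of the upper promoters and in 76.2% of those near the floor.

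Between the arrays the P450 genes differed about as much as other genes. Their median difference was -0.078, with 22 genes higher and 35 lower (61.4%) for experimenter 2, against a median of -0.049 and 58.7% lower over all genes. The SD of the differences over genes was 0.27 for P450 genes and 0.26 for all. After quantile normalization 27 P450 genes were higher and 30 lower (52.6%), and over all genes 51.7% were lower. Only *Cyp26b1* was at least 1.5-fold higher for experimenter 2, while 1.93% of all genes were. Only *Cyp1a2* was at least 1.5-fold lower for experimenter 2, against 1.31% of all genes. Both counts are near those backgrounds. After quantile normalization or removal of a loess trend, *Cyp26a1* also passed, giving 2 higher and 1 lower. At 2-fold there were 0 P450 genes in either direction, where 0.232% of all genes were higher and 0.0422% lower. Since 1 array a group allows no test, no other tool or p-value stands beside these counts.

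**Figure D4:**
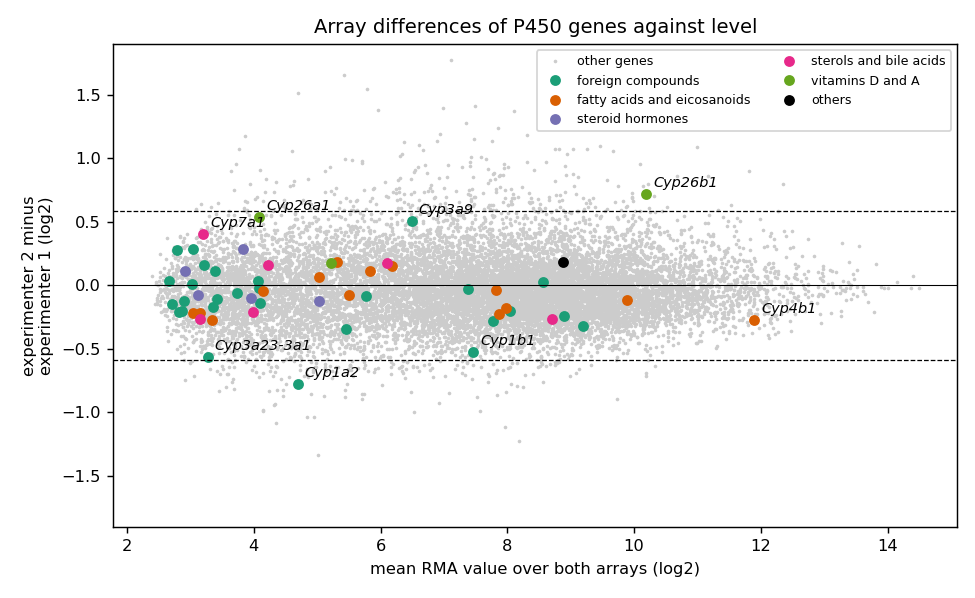
Difference between the arrays (experimenter 2 minus experimenter 1, log2, vertical) against mean level (log2, horizontal), with P450 genes coloured by role over all other genes in grey; dashed lines mark 1.5-fold. *Cyp26b1* at 0.72 and *Cyp1a2* at -0.78 are the only P450 genes outside the dashed lines.

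*Cyp26b1* was 1.64-fold higher for experimenter 2, a difference of 0.72. Its second probe set went the other way, at 8.22 for experimenter 2 and 8.54 for experimenter 1, a difference of -0.33. Both probe sets were in the top 25% of both arrays, so the gene's place there held by either, while its direction did not. The gap between the 3′ and 5′ probe sets of *Actb*, a gauge of shortened RNA, was 2.71 for experimenter 2 and 2.15 for experimenter 1; its part in the result was not tested. *Cyp26a1* was also higher for experimenter 2, by 0.54, at a level near the floor.

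*Cyp1a2* was lower for experimenter 2 by 0.78, or 0.583 of the level of experimenter 1, by its single probe set. Among liver markers, 11 of 14 measured were lower for experimenter 2 as well (10 after any rescaling), against 58.7% of all genes. Their median difference was -0.25, against -0.049 over all genes, and 8 of the 14 were near the floor on both arrays. Their summed linear level was 2191 for experimenter 2 and 2546 for experimenter 1; none was at 0, and *Fga*, a fibrinogen chain, was lowest by its mean at 3.13 (experimenter 2) and 3.29 (experimenter 1). Most of that sum came from *Fgg*, another fibrinogen chain, at 10.84 (experimenter 2) and 11.06 (experimenter 1), while *Alb*, albumin, measured 5.04 for experimenter 2 and 5.41 for experimenter 1. The widest liver difference was that of *Ambp*, at 4.51 for experimenter 2 and 5.16 for experimenter 1. The part of these markers in the *Cyp1a2* value was not tested.

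Besides *Cyp26a1*, differences just under 1.5-fold were those of *Cyp3a23-3a1* (-0.56), *Cyp1b1* (-0.53) and *Cyp3a9* (0.51). Among the 8 genes of the upper set, 5 were lower for experimenter 2 and 3 higher, with a median of -0.18. The 16 P450 genes in the upper part of the range, with a mean no lower than the median probe set, had a median difference of -0.19 and 12 of 16 were lower, against -0.050 and 59.7% lower for all 9558 genes in that range. After removal of a loess trend that median was -0.14 with 10 of 16 lower, against 50.1% of the 9558.

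Cell types known to carry lung P450 enzymes were compared by their markers. Over all genes, 58.7% were lower for experimenter 2, with a median difference of -0.049. Of 9 club cell markers, 6 were lower for experimenter 2 (5 after any rescaling), with a median difference of -0.053. Their summed linear level was 26836 for experimenter 2 and 26141 for experimenter 1. By its mean *Bpifb1* was lowest, at 5.03 for experimenter 2 and 5.20 for experimenter 1, and *Muc5b*, a mucin, differed most, at 6.41 (experimenter 2) and 6.23 (experimenter 1). Alveolar type 2 markers had sums of 69608 for experimenter 2 and 69974 for experimenter 1. Of them, 7 of 10 were lower (6 or 7 after rescaling), with a median of -0.056. *Etv5* was the lowest of these at 8.89 (experimenter 2) and 9.03 (experimenter 1), and *Abca3*, the lamellar body transporter, differed most, at 11.02 for experimenter 2 and 11.30 for experimenter 1. None of the club, alveolar type 2, ciliated or endothelial markers was near the floor on both arrays. Endothelial markers, 6 of 9 of them lower, had a median of -0.093 and sums of 24100 for experimenter 2 and 25050 for experimenter 1. *Ramp2*, a receptor partner, was the highest there at 12.48 (experimenter 2) and 12.47 (experimenter 1), and *Calcrl* was the lowest and differed most, at 7.07 for experimenter 2 and 7.82 for experimenter 1. Ciliated cell markers, led by *Tppp3* at 12.05 (experimenter 2) and 12.22 (experimenter 1), had 2 of 5 lower and sums of 5007 for experimenter 2 and 5506 for experimenter 1. In that list *Dnai1* was lowest at 6.66 on both arrays, and *Rsph1* differed most, at 7.28 for experimenter 2 and 6.77 for experimenter 1. Their part in the P450 values was not tested.

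Several probe sets were present for 6 genes, and the brightest and the second moved in the same direction in 4 of them. In *Cyp4v3* they opposed each other, with differences of -0.12 and 0.32, and the second was much weaker, at 6.66 for experimenter 2 and 6.34 for experimenter 1. *Cyp4a8*, a kidney and liver form, had a difference of -0.044 with the brightest probe set, whose sign turned under quantile normalization and loess, and its second measured 3.25 for experimenter 2 and 4.04 for experimenter 1, a difference of -0.80. *Cyp2d4* (-0.20 and -0.11), *Cyp2j3* (0.15 and 0.21) and *Cyp19a1* (0.29 and 0.17) kept their direction, and the third probe set of *Cyp19a1* gave -0.044. The other 51 genes had a single probe set, so such a comparison was not possible for them.

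**Figure D5:**
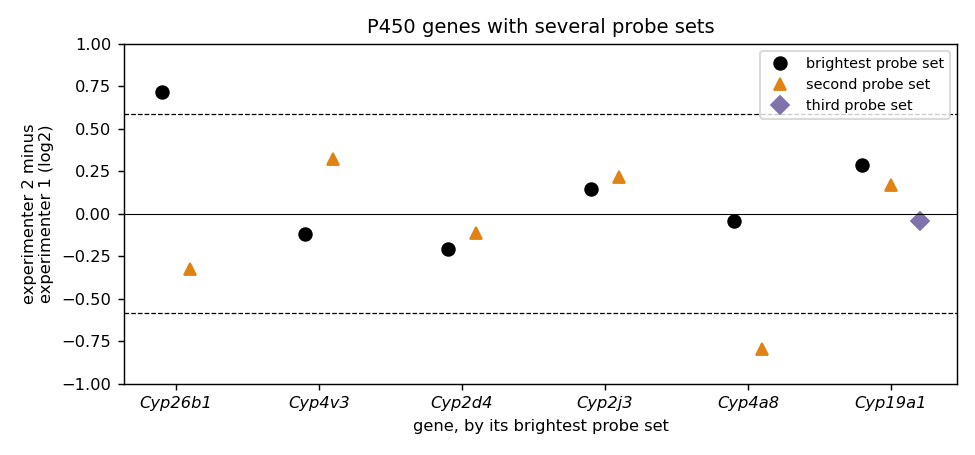
Difference between the arrays (experimenter 2 minus experimenter 1, log2) of every probe set of the 6 P450 genes that had several, from the brightest (circle) to the second (triangle) and the third (diamond); dashed lines mark 1.5-fold. *Cyp26b1*, *Cyp4v3* and, through the third probe set, *Cyp19a1* have values on both sides of 0, and the second probe set of *Cyp4a8* lies at -0.80.

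Genes that work with P450 enzymes gave strong signals, unlike most P450 genes. By the brightest probe set, 7 of the 8 partners measured were in the top 25% of both arrays, against 37.6% of all genes. None was near the floor by that probe set, against 14.1% of all genes. *Por*, the reductase that feeds the microsomal forms, measured 9.64 for experimenter 2 and 9.76 for experimenter 1. Its second probe set was weaker, at 7.07 (experimenter 2) and 7.27 (experimenter 1). *Cyb5a*, cytochrome b5, measured 11.42 for experimenter 2 and 11.36 for experimenter 1, and its reductase *Cyb5r3* measured 11.34 (experimenter 2) and 11.29 (experimenter 1). *Cyb5b*, the mitochondrial b5, measured 8.30 for experimenter 2 and 8.38 for experimenter 1. Mitochondrial P450 enzymes draw electrons from the ferredoxin *Fdx1* instead, which measured 9.62 for experimenter 2 and 9.80 for experimenter 1. *Fdx2*, another listed ferredoxin, was the lowest of the list at 8.21 (experimenter 2) and 8.17 (experimenter 1). Second probe sets of both were near the floor, at 3.97 (experimenter 2) and 4.26 (experimenter 1) for *Fdx1*. Those values for *Fdx2* were 3.51 (experimenter 2) and 3.15 (experimenter 1). The haem-binding helpers of the membrane differed more, as *Pgrmc1* measured 11.67 for experimenter 2 and 11.13 for experimenter 1, and *Pgrmc2* 9.09 (experimenter 2) and 9.49 (experimenter 1). Differences in this list split evenly, 4 higher and 4 lower, and 0 of 8 reached 1.5-fold, where 1.93% of all genes were that much higher and 1.31% that much lower.

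Among receptors and regulators of P450 genes, 4 of 18 measured were in the top 25% of both arrays and 4 near the floor. Over all genes those shares were 37.6% and 14.1%. The median difference was -0.22 and 13 of 18 were lower for experimenter 2, against -0.049 and 58.7% over all genes. *Nfe2l2*, the oxidative stress factor, was highest at 10.90 for experimenter 2 and 10.70 for experimenter 1, and *Ahrr*, the repressor of the Ah receptor, lowest by its mean at 3.42 (experimenter 2) and 3.94 (experimenter 1). By the brightest probe sets *Ahr*, the Ah receptor, had the widest difference, at 4.67 for experimenter 2 and 5.54 for experimenter 1. Its second probe set had the opposite sign, at 4.14 for experimenter 2 and 3.84 for experimenter 1. The second probe set of *Rarg* differed more, by -1.45, at 4.02 for experimenter 2 and 5.47 for experimenter 1. The brightest probe set of *Rarg* differed by -0.51. At least 1.5-fold lower were *Ahr* and *Nr1h2*, a liver X receptor, which measured 8.63 for experimenter 2 and 9.34 for experimenter 1, and whose second probe set differed by -0.15. That is 2 of 18, where 1.31% of all genes were that much lower, and 0 of 18 were that much higher, where 1.93% of all genes were. Ah receptor targets outside family 1 had 4 members measured, 3 of them lower for experimenter 2 (2 after any rescaling); *Nqo1*, a quinone reductase, was highest at 9.81 for experimenter 2 and 9.48 for experimenter 1. *Ahrr* was again the lowest and the one with the widest difference.

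P450 genes that carry other names, and so fall outside the rule, were all above the median of both arrays. That was common, since by mean level 9558 of all 14217 genes were at or above the median probe set. At or above the 75th percentile on both arrays were 2 of the 3 measured, against 37.6% of all genes. *Ptgis*, the prostacyclin synthase, measured 9.48 for experimenter 2 and 9.45 for experimenter 1. *Cyp51*, the demethylase of cholesterol synthesis, measured 9.33 for experimenter 2 and 9.58 for experimenter 1, the widest difference of the 3. Its second probe set had the opposite sign, at 7.14 (experimenter 2) and 6.98 (experimenter 1), a difference of 0.16. *Tbxas1*, the thromboxane synthase, measured 7.93 for experimenter 2 and 8.09 for experimenter 1. Among epoxide hydrolases and flavin monooxygenases, enzymes that act beside P450, *Fmo2*, the lung form, was highest at 12.22 for experimenter 2 and 12.04 for experimenter 1, and *Ephx4* lowest at 3.60 (experimenter 2) and 3.94 (experimenter 1). *Ephx1*, the microsomal epoxide hydrolase, had the widest difference, at 9.14 for experimenter 2 and 9.51 for experimenter 1. In that list 6 of 7 members were lower for experimenter 2 (5 after any rescaling), against 58.7% of all genes.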

How the data were processed

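The authors deposited log2 values of 2 arrays made with RMA, per the submitters' processing notes; RMA corrects background, forces a common distribution on the arrays and summarises each probe set. The RMA version, and which arrays went into it, are not given in these sources, and base 2 was taken from the range of the values. Of 31099 probe sets, 57 controls were kept apart; 20826 of the others had 1 symbol, 436 several and 9780 none. Symbols were updated through Entrez identifiers to GRCr8 for 20758. Sequences are RefSeq's. No array has a replicate, so no error or test exists and the number of arrays limits the precision. The members and gene lists were chosen with earlier results of these data known. Genes named are those in the top 25% of either array, at least 1.5-fold apart, next to a bound, highest or lowest of their role, or the 5 lowest, plus the highest, lowest and most different member of each other list and all partners. Genes of subfamilies were also named to describe them, and some other list members to show limits. Roles follow family names. Alternatives covered probe set choice, scaling, level filter, percentile bounds and fold. The counting steps were tested on simulated data. Computations used Python 3.11.15, numpy 2.4.6, pandas 2.3.3, scipy 1.17.1, statsmodels 0.14.6 and matplotlib 3.10.9.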

Additional observations from a re-analysis of the deposited data

Results flagged for a closer look

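A strong P450 signal lay outside the members, because its probe set is annotated to several genes. Of 7 such P450 probe sets, 1 was annotated to both *Cyp2b1* and *Cyp2b2*. It measured 12.15 for experimenter 2 and 11.95 for experimenter 1, at percentiles 99.2 and 99.0. That was above *Cyp4b1* for experimenter 2 (11.75) and under it for experimenter 1 (12.02). The value of the shared probe set cannot be assigned to *Cyp2b1* or to *Cyp2b2*. The 3 genes of subfamily 2b with a probe set of their own were near the floor, and the other 6 shared probe sets ran from 2.57 to 5.29 over both arrays. No group had enough arrays to look for a sample far from the others.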

How the results depend on the processing

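No paired analysis was possible because a single array stands behind either experimenter, which also leaves none to drop. The upper set of 8 genes held 3 at the 90th percentile and 4 (*Cyp4b1*, *Cyp26b1*, *Cyp4v3* and *Cyp2f4*) when percentiles were taken over 1 probe set per named gene; it lost *Cyp4v3* alone by either other choice of probe set. The 30 genes near the floor were 14 at the 10th percentile, 35 over named genes and 36 by the genes of other organs. The count at least 1.5-fold higher was 0 with the mean over probe sets, with second probe sets and at 2-fold, and 2 after quantile normalization or loess (fraction 0.3). The count at least 1.5-fold lower was 2 with second probe sets, and 0 at 2-fold or among genes at or above the median level, where the median difference was -0.19 over 16 genes. A move of the median by under 0.1 was taken as none. The other medians ran from -0.084 to -0.028. *Cyp26b1* turned to -0.33 by its second probe set and was 0.20 by the mean over both; the cause was not tested. *Cyp1a2* ran from -0.78 to -0.72. Weak signals without detection calls limit the genes near the floor.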
